A study of Mus musculus with 6 samples.

Results

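Loss of MICT1 in differentiated, forskolin-treated cultures of a brown preadipocyte line was accompanied by higher transcript levels of the cytokine genes Il6, Csf3, Lif, Il11 and Csf1. Levels of the receptor genes Il6st, Osmr and Lifr, of the transcription factor gene Stat3 and of its feedback inhibitor gene Socs3 were moderately lower. These 10 genes were taken by symbol from the 13283 genes of the deposited table. All 10 were found, and all 10 passed the filter on low values that kept 12507 genes for testing. They were picked as a pathway with the difference between MICT1 KO and Scr cells already known, so that difference is described for them without a p-value, and their agreement in direction supports nothing further.

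The cells were an immortalized mouse brown preadipocyte line (BAT cells) that stably expresses Cas9. MICT1 KO cells received sgRNA against MICT1 and Scr cells a scrambled sgRNA, by lentivirus with sorting for GFP, so the KO cells are pools rather than clones, and the labels do not tell which sgRNA pool each library came from. All 6 cultures, 3 Scr and 3 MICT1 KO, went through the same adipogenic differentiation and were given 10 µM forskolin, which activates adenylyl cyclase, for 6 h on day 6. No culture without forskolin was analysed here, and all values below are levels under forskolin. The labels give the genotypes as WT for Scr and MICT1-CRISPR KO. The comparison asks how gene expression differs with loss of MICT1 in stimulated cultures taken through brown adipocyte differentiation. The KO cultures had far lower brown adipocyte markers, as given below. The level of MICT1 itself was not analysed here.

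Cytokines of the IL-6 family (IL-6, IL-11, LIF and others) act through receptor complexes that share the signaling chain gp130, the product of Il6st. IL-6 and IL-11 first bind a chain of their own, LIF pairs gp130 with the LIF receptor, and oncostatin M pairs it with the OSM receptor. The complexes activate Janus kinases, which phosphorylate STAT3. STAT3 then moves to the nucleus and induces Socs3, whose product binds gp130 and shuts the signal down. The colony-stimulating factors are separate hematopoietic cytokines: M-CSF (Csf1) maintains macrophages and G-CSF (Csf3) drives neutrophil production. Adipose tissue is a known source of IL-6 and M-CSF, and IL-6 transcription is known to respond to cAMP and NF-kB signals.

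Values are a normalized signal per gene, read from the table as estimated reads divided by a size factor per library. The libraries summed to between 16104616 and 16616825, and their estimated reads to between 15441335 and 17918805. The test was limma-trend on log2(value + 1), with Benjamini-Hochberg adjustment of p over all genes tested. Most of the table differed between the groups. An adjusted p under 0.05 was found in 56.9% of the genes tested, 28.5% higher and 28.3% lower in MICT1 KO, and the groups did not overlap in 62.0% of the genes, with all MICT1 KO values higher in 30.9% and all lower in 31.2%. A called rise of at least 2-fold was found in 7.99% of the genes and a called fall of that size in 5.76%. All 10 cytokine-axis genes were called and did not overlap, 5 higher and 5 lower, and 4 of the 5 higher ones were at least 2-fold higher. With the genes chosen on this contrast, these counts are given as a description only.

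Marker genes of brown adipocytes were far lower in MICT1 KO cells. The paper also reports lower adipogenic genes, such as Pparγ and Fabp4, in its CRISPR knockout cells. It found no change in adipogenic markers when MICT1 was knocked down in cells already differentiated. Nor did it detect significant differences in such markers in brown adipose tissue of mice with MICT1 ablated in Ucp1+ cells. Of 9 brown adipocyte genes, 8 were analysed, some of which met the filter on low values only through their Scr libraries. All 8 fell (limma-trend), a called share of 100% against 56.9% of all genes tested. Their summed signal was 114596 to 135440 in the Scr libraries and 13687 to 19817 in the MICT1 KO libraries. Lpl and Fabp4 were the highest of them, with log2 fold changes of -2.44 and -3.33. The preadipocyte and fibroblast genes were mixed, 3 higher and 2 lower of 6 tested, a called share of 83.3% against the same 56.9%. Log2 fold changes ran from -3.47 to 1.39 over these 6 genes. Col1a1 and Col3a1, the highest of them in signal, were at 0.77 and -0.05 on that scale. Of 12 macrophage genes 4 were analysed, with a summed signal of 267 to 384 in Scr and 516 to 638 in MICT1 KO libraries. Cd14 made up most of that difference, at 130, 231 and 217 in Scr cells against 465, 480.5 and 388 in MICT1 KO cells (log2 fold change 1.24, adjusted p = 2.44e-06, limma-trend). Csf1r, Cd68 and Mrc1 did not pass the test (log2 fold changes 0.29, -0.23 and 0.02). The pan-leukocyte gene Ptprc and the macrophage genes Adgre1, Itgam and Lyz2 were not analysed here. Of 11 neutrophil, lymphocyte and mast cell genes S100a8 alone was analysed, at no more than 20.8 in any library, and of 6 endothelial genes Cdh5 alone, at 5.93 to 12.1 in Scr and 25.9 to 33.4 in MICT1 KO libraries. The part of these differences in the cytokine values was not tested. In RNA from whole cultures, fewer cells of a type and less RNA per cell cannot be told apart.

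Il6, which encodes the interleukin that gives the family its name, showed the largest difference of the 10 genes. It lies on chromosome 5 from 30013114 to 30019975 (GRCm38). Its signal was 246, 258 and 164 in Scr cells against 7635, 7302 and 6398 in MICT1 KO cells. The groups were far apart, and the lowest Scr value belonged to replicate 3. The means were 223 ± 51.2 (SD, n = 3) and 7112 ± 640.3 (SD, n = 3), 31.9-fold higher in MICT1 KO, with a log2 fold change of 5.02 ± 0.12 (SE). Without Scr replicate 3 the log2 fold change was 4.81. Among the 12507 genes tested this was the third largest rise (rank 3).

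**Figure D1:**
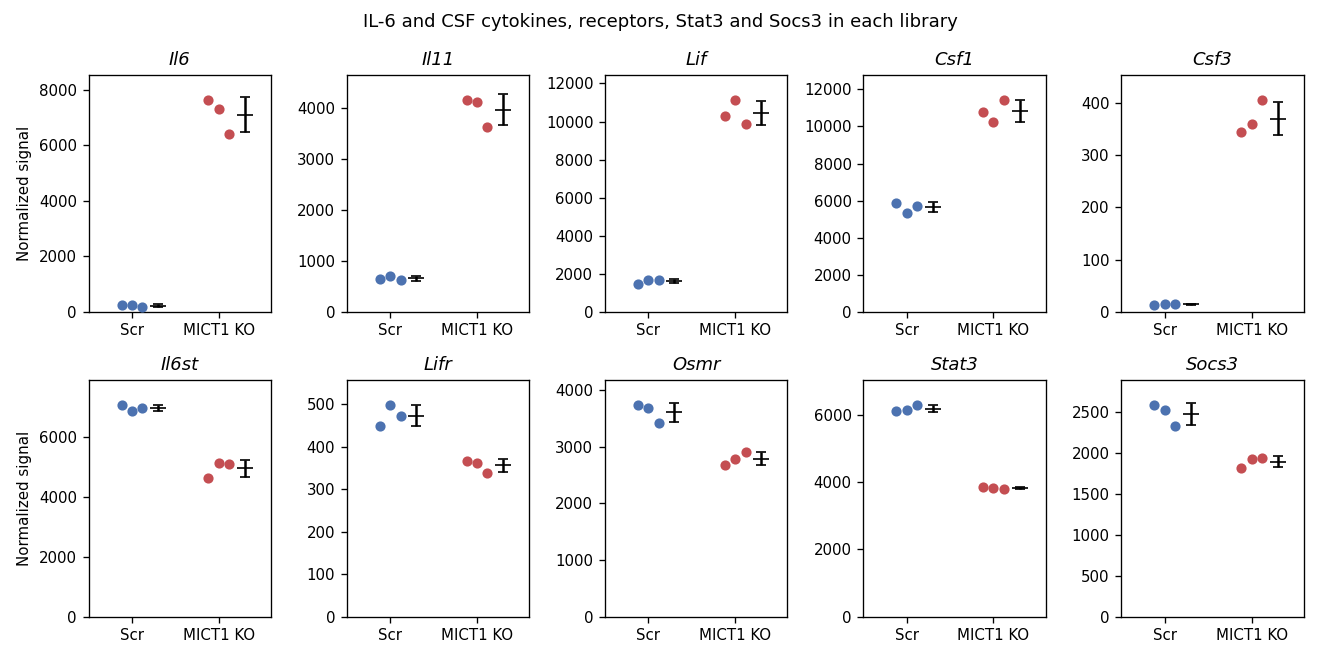
Normalized signal (linear axes from 0) of the 10 genes in each of the 3 Scr (blue) and 3 MICT1 KO (red) libraries, with the mean and SD beside the points. The groups do not overlap in any panel: the 5 cytokine genes in the top row are higher in MICT1 KO cells and the 5 genes in the bottom row are lower.

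Csf3 encodes G-CSF and lies on chromosome 11 from 98700183 to 98703631. It was very low in Scr cells, with a signal of 13.8, 14.8 and 14.2, against 344, 359 and 405 in MICT1 KO cells. The Scr values stand for about 14, 16 and 14 reads, and the exact 95% Poisson interval of 14 reads, 7.65 to 23.5, covers counting error only. The means were 14.3 ± 0.495 (SD, n = 3) and 370 ± 31.8 (SD, n = 3), or 25.8-fold higher, with a log2 fold change of 4.59 ± 0.22 (SE) and rank 6 among all rises. With a pseudocount of 5 in place of 1 the log2 fold change of this low gene was 4.27.

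Lif and Il11 encode cytokines that, like IL-6, signal through gp130. Lif (chromosome 11, from 4257568 to 4272514) was 1471, 1671 and 1684 in Scr cells against 10281, 11121 and 9892 in MICT1 KO cells. Its mean was 6.48-fold higher, with a log2 fold change of 2.70 ± 0.06 (SE). Il11 (chromosome 7, from 4772373 to 4782907) was 637, 698 and 621 in Scr cells against 4144, 4118 and 3612 in MICT1 KO cells. Its mean was 6.07-fold higher, with a log2 fold change of 2.60 ± 0.07 (SE). Both genes thus stood about equally far apart between the groups, each with replicates that stayed within a narrow range.

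Csf1 encodes M-CSF, the ligand of the receptor Csf1r, and lies on chromosome 3 from 107741048 to 107760469. It had the highest signal of the 5 cytokines in Scr cells, at 5884, 5343 and 5730, and reached 10792, 10239 and 11418 in MICT1 KO cells. The difference was the smallest among the cytokines, 1.91-fold, with a log2 fold change of 0.94 ± 0.06 (SE). Unlike the other 4 cytokines, it stayed inside the range from -1.12 to 1.35, the 5th to the 95th percentile of all genes tested.

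**Figure D2:**
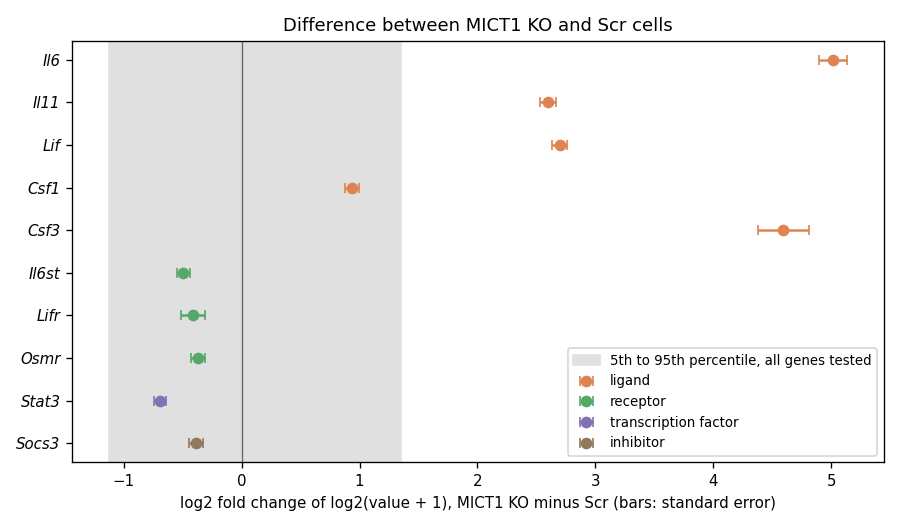
Log2 fold change (x axis, MICT1 KO minus Scr, on the log2(value + 1) scale, bars are standard errors) of each gene, colored by its role, over a gray band from -1.12 to 1.35 that spans the 5th to the 95th percentile of all 12507 genes tested. Il6 (5.02), Csf3 (4.59), Lif (2.70) and Il11 (2.60) lie above the band, while Csf1 and the 5 lower genes lie inside it.

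The sequences upstream of these genes were searched for motifs of STAT factors and of factors known to act on Il6. The promoter table of RefSeq (GRCm38.p6) matched 9 of the 10 genes, Csf3 being the other. It gave 11 windows in all because it lists a pair of starts each for Il11 and Lifr. Not every start of a gene is covered, as the outer start of Lifr has no window. Each window holds the 250 bases before a listed start, which need not be the outer end of the gene. The windows of Il11, Lifr, Osmr, Stat3 and Socs3 lie wholly or partly inside the gene. The motifs, on both strands, were the STAT site (TTCNNNGAA), the core of the cAMP response element or CRE (TGACGT), the AP-1 site (TGANTCA), the C/EBP site (TTGCNNAA) and the NF-kB site. Il6 held the AP-1, CRE, C/EBP and NF-kB motifs. Its window is printed because the gene had the largest difference and 4 matches, in capitals, which from left to right are AP-1, CRE, C/EBP and NF-kB (chr5:30012864-30013113, plus strand).
Il6: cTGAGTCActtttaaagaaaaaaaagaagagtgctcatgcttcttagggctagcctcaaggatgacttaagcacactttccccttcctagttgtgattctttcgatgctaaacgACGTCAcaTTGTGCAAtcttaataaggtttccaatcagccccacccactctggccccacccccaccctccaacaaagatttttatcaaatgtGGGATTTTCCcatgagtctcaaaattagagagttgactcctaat

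Lif and 1 of the 2 windows of Il11 each held an AP-1 match, in capitals below, and are shown since both differed by a like amount (Lif chr11:4257318-4257567, plus strand, and Il11 chr7:4778142-4778391, minus strand).
Lif: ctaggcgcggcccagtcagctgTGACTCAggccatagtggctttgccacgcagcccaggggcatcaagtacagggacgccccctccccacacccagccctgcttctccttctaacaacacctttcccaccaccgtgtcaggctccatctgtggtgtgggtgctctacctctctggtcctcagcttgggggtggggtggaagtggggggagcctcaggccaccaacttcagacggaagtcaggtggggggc
Il11: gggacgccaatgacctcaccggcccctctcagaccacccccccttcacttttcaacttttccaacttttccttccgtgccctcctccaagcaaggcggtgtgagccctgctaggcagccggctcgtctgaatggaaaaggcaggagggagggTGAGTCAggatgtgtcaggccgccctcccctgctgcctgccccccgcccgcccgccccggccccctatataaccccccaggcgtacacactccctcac

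Csf1, the cytokine gene with the smallest difference, held an NF-kB match and Socs3 a STAT match, both in capitals. The Socs3 window is printed because it is the gene that STAT3 is known to induce (chr3:107760470-107760719 and chr11:117969367-117969616, both minus strand).
Csf1: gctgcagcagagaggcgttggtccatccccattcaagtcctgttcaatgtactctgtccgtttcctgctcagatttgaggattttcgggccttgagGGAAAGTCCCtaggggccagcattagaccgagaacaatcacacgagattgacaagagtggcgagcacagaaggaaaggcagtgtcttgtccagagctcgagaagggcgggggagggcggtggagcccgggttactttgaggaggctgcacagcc
Socs3: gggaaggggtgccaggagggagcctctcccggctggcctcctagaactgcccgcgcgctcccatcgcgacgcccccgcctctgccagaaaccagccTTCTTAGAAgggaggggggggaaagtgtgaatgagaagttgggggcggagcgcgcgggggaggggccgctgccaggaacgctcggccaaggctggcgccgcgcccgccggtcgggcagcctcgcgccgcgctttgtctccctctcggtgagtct

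No match overlapped another. These letters are not rare: of all 32851 promoter windows of the same length, 7.02% held the STAT motif, 6.47% the CRE core, 6.75% the AP-1, 9.56% the C/EBP and 3.9% the NF-kB motif. Over the 13410 windows of measured genes the shares were 5.83% (STAT), 9.63% (CRE), 4.58% (AP-1), 7.4% (C/EBP) and 4.65% (NF-kB). These shares are per window, whereas the counts that follow are per gene, so they are not directly comparable. Among the 9 matched genes the AP-1 motif was present in 3 (Il6, Lif and Il11) and the NF-kB motif in 2 (Il6 and Csf1). The CRE core and the C/EBP motif were present in Il6 and the STAT motif in Socs3. The windows of Il6st, Osmr, Lifr and Stat3 held none of the 5 motifs. A match describes letters in these windows and is not evidence of binding.

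**Figure D3:**
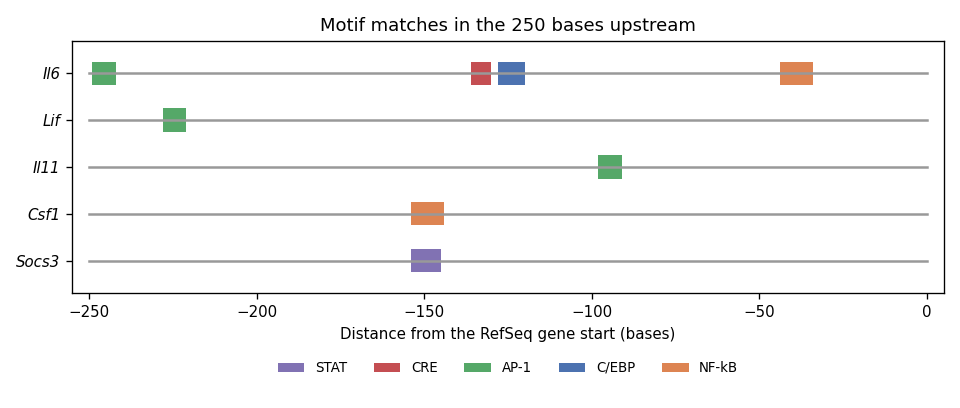
Positions of the motif matches (colored blocks) in the 250 bases upstream of a RefSeq start of each gene with a match, as distance from that start in bases. The starts shown for Il11 and Socs3 lie inside the gene and are not its outer end. Il6 carries 4 matches, AP-1 at -249 to -243, CRE at -136 to -131, C/EBP at -128 to -121 and NF-kB at -44 to -35, and Lif, Il11, Csf1 and Socs3 carry 1 each.

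The receptor chains Il6st, Osmr and Lifr differed in the other direction and by much less. Il6st, the gene of gp130 (chromosome 13, from 112464070 to 112506860), was 7069, 6853 and 6974 in Scr cells against 4632, 5137 and 5087 in MICT1 KO cells. All KO values were below all Scr values, with a log2 fold change of -0.49 ± 0.05 (SE), and the Scr mean was 1.41-fold the KO mean. Osmr, the gene of the oncostatin M receptor, was 3734, 3673 and 3412 in Scr cells against 2670, 2782 and 2908 in MICT1 KO cells, a log2 fold change of -0.37 ± 0.06 (SE). Lifr, the gene of the LIF receptor, had the lowest signal among Il6st, Osmr and Lifr. It was 448, 498 and 471 in Scr cells against 367, 362 and 337 in MICT1 KO cells, a log2 fold change of -0.41 ± 0.10 (SE). Osmr (from 6813568 to 6874968) and Lifr (from 7090610 to 7197489) are neighbors on chromosome 15, separated by 215641 bases.

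Stat3 encodes the transcription factor that gp130 complexes activate, and its transcript level is not a measure of that activation. It lies on chromosome 11 from 100886806 to 100939594. Its signal was 6133, 6141 and 6305 in Scr cells against 3871, 3824 and 3808 in MICT1 KO cells, the tightest replicates of the 10 genes. The means were 6193 ± 97.0 (SD, n = 3) and 3834 ± 32.6 (SD, n = 3), 1.62-fold apart, with a log2 fold change of -0.69 ± 0.05 (SE). The exons of Stat3 share 72 of 9527 bases with Stat5a on the opposite strand, and the other 9 genes share no exon bases with another annotated gene. The libraries were strand-specific, but whether the counting used strand is not given in the sources used here.

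Socs3, the feedback inhibitor induced by STAT3 (chromosome 11, from 117966079 to 117970336), was 2585, 2522 and 2329 in Scr cells against 1820, 1921 and 1940 in MICT1 KO cells. The groups were apart, with a log2 fold change of -0.39 ± 0.06 (SE) and means 1.31-fold apart. Socs3 was thus lower in the libraries in which Il6, Lif and Il11 were higher.

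Levels can be set against each other only per length. Each value was therefore divided by the exon length of the gene and by the library sum, giving RPKM, a level per kilobase of exon that is scaled to a common library size. In Scr cells the order of the levels was Csf1 (65.4 ± 4.20 RPKM, SD, n = 3), Socs3 (52.4), Stat3 (39.7), Il6st (38.4), Lif (22.6), Il11 (19.1), Osmr (18.2), Il6 (5.60 ± 1.29 RPKM, SD, n = 3), Lifr (2.68) and Csf3 (0.619). The replicates of Stat3 overlapped those of Il6st and the replicates of Il11 those of Osmr, and the other neighbors were apart. In MICT1 KO cells Il6 moved to the top of the order (179 ± 15.3 RPKM, SD, n = 3), followed by Lif (147.0), Csf1 (125.5) and Il11 (116.5), with overlap between Csf1 and Il11. Socs3 (40.15), Il6st (27.35), Stat3 (24.7), Csf3 (16.0), Osmr (14.1) and Lifr (2.02) followed, with no overlap between neighbors. Among 12910 genes with an exon length, Il6 stood at rank 6717 in Scr and at rank 196 in MICT1 KO cells, and Csf3 at ranks 10836 and 3408.

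**Figure D4:**
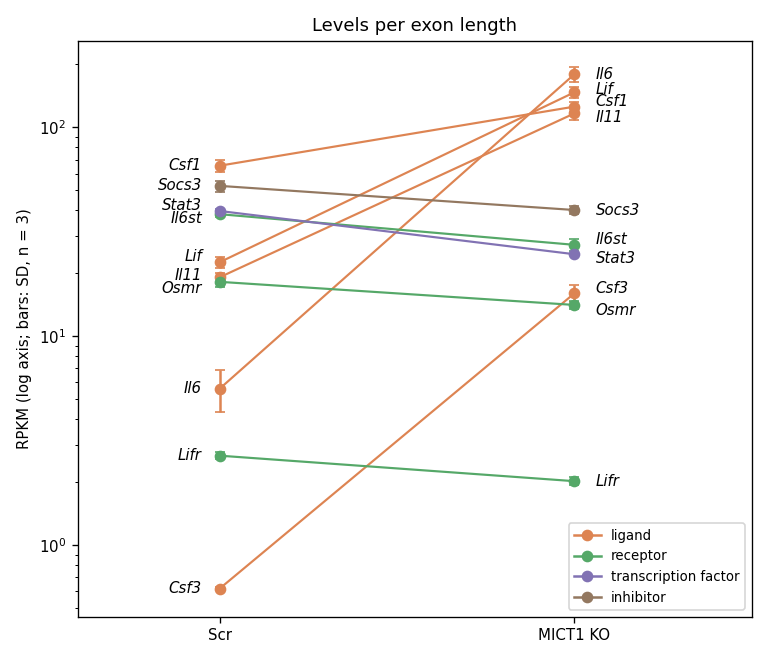
Mean level per exon length (RPKM, log axis, bars are the SD of 3 libraries) of the 10 genes in Scr and in MICT1 KO cells, joined by a line for each gene and colored by role. The cytokine lines go up and the other lines slightly down, with Il6 going from 5.60 RPKM, above only Lifr and Csf3, to 179 RPKM at the top.

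The makeup of the cytokine transcripts also differed. The summed level of the 5 cytokines was 111 to 116 RPKM in the Scr libraries and 560 to 598 RPKM in the MICT1 KO libraries. Csf1 made up 54.7% to 59.6% of that sum in Scr and 19.9% to 23.8% in MICT1 KO cells, whereas the share of Il6 was 3.65% to 5.74% and 29.0% to 32.1%. The ratio of Lif to Il11 overlapped between the groups, at 1.1 to 1.3 in Scr and 1.19 to 1.31 in MICT1 KO cells. The ratio of Il6 to Csf3 overlapped as well (6.69 to 10.4 and 9.19 to 12.9). Against its signaling chain, Il6 was present at 0.107 to 0.172 of the Il6st level in Scr and at 5.75 to 7.53 times that level in MICT1 KO cells. The ratio of Socs3 to Stat3 was 1.22 to 1.39 in Scr and 1.55 to 1.68 in MICT1 KO cells, since Stat3 was lower by more than Socs3.

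The remaining genes of the pathway were taken from lists of families and of commonly described STAT3 targets, 71 genes, of which 58 were in the table and 56 were tested. Of these 56 genes, 18 rose and 17 fell with an adjusted p under 0.05 (limma-trend), 62.5% against 56.9% of all genes tested, and their median log2 fold change was 0.01 against -0.01. The pooled share was thus close to that of the whole table, while the shares of the single families differed. Below they are given only for the Janus kinases, the inhibitors and the STAT3 targets. Single genes of the lists are described with their own tests.

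Among the other ligands of the IL-6 family, Clcf1 rose slightly. Clcf1 was 2289, 2299 and 2118 in Scr cells against 2376, 2554 and 2525 in MICT1 KO cells (log2 fold change 0.15, adjusted p = 0.0350, limma-trend). That call was lost without Scr replicate 3 (0.11, adjusted p = 0.145, limma-trend), without KO replicate 2 (0.13, adjusted p = 0.101) or without KO replicate 3 (0.14, adjusted p = 0.102). Cntf and Ctf1, which encode further ligands of the family, were low and did not pass (log2 fold changes -0.74 and 0.38). Cntf passed without Scr replicate 3 (-1.03, adjusted p = 0.0244, limma-trend). Osm, Ctf2, Il27, Ebi3 and Il31 were not analysed here.

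Of the further colony-stimulating and related hematopoietic ligands, Kitl (stem cell factor) fell, from 2209, 2201 and 2091 in Scr to 1414, 1692 and 1859 in MICT1 KO libraries (log2 fold change -0.40, adjusted p = 0.000207, limma-trend). Il34, which encodes the second ligand of the M-CSF receptor, and Flt3l were low, at 4.15 to 17.3 and 10.5 to 29.5 over all 6 libraries, and did not pass. Csf2, Il3 and Il5 were not analysed here.

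Of the ligand-binding chains, Il6ra, which binds IL-6 before gp130 joins, fell. Its signal was 865, 892 and 968 in Scr cells against 561, 701 and 725 in MICT1 KO cells (log2 fold change -0.46 ± 0.09 SE, adjusted p = 0.000270, limma-trend). Il31ra, which pairs with the OSM receptor to bind IL-31, fell most, from 48.5, 62.1 and 65.1 to 1.91, 9.48 and 6.22 (log2 fold change -3.29 ± 0.48 SE, adjusted p = 6.07e-06, limma-trend). The receptor chain of IL-11, Il11ra1, was 290 ± 32.1 (SD, n = 3) and 315 ± 35.6 (SD, n = 3), with overlapping groups (log2 fold change 0.12, adjusted p = 0.449, limma-trend). Csf1r, the receptor of M-CSF, overlapped too, at 72.2 to 103 in Scr and 91.2 to 129 in MICT1 KO libraries (log2 fold change 0.29, adjusted p = 0.253, limma-trend). Il27ra, at 2.04 to 8.34 in Scr and 13.3 to 15.8 in MICT1 KO libraries, met the filter on low values only through its MICT1 KO libraries. With that selection its test results are a description only. It did not pass (log2 fold change 1.35, adjusted p = 0.0623, limma-trend). It passed without Scr replicate 2 (1.66, adjusted p = 0.0487), with no filter on low values (1.35, adjusted p = 0.0433) and by limma-voom (1.45, adjusted p = 0.0435). Il31ra in turn met the filter only through its Scr libraries. Cntfr, at 0.927 to 2.97 in Scr and 4.77 to 8.29 in MICT1 KO libraries, and Csf2rb, at 5.09 to 19.8 and 1.05 to 6.67, did not pass the filter on low values and were not tested. The receptor genes Csf3r, Csf2ra, Csf2rb2 and Il11ra2 were not analysed here.

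Of the 4 Janus kinases of the pathway 2 fell and 2 did not pass the test, a called share of 50% against 56.9% of all genes tested. Jak1, the main kinase of gp130, was 6378, 6538 and 5994 in Scr cells against 6711, 6467 and 6245 in MICT1 KO cells, with overlapping groups (log2 fold change 0.04 ± 0.05 SE, adjusted p = 0.560, limma-trend). Tyk2 overlapped as well (0.02, adjusted p = 0.932, limma-trend). Jak2, which also serves many hematopoietic cytokine receptors, fell from 1618 ± 61.1 (SD, n = 3) to 1234 ± 43.0 (SD, n = 3) (-0.39, adjusted p = 3.24e-05, limma-trend). Jak3, the kinase of the common gamma chain, fell from 1055 ± 28.7 (SD, n = 3) to 623 ± 77.2 (SD, n = 3) (-0.77, adjusted p = 2.51e-07, limma-trend).

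Of the other STAT genes described here, Stat6 and Stat5a fell and Stat2 rose. Stat6, the factor of IL-4 and IL-13 signaling, fell by 0.81 (adjusted p = 8.89e-10, limma-trend) and Stat5a by 0.71 (adjusted p = 7.43e-07) on the log2 scale. Stat5b overlapped between the groups (log2 fold change -0.13, adjusted p = 0.186, limma-trend). Stat2, a subunit of the interferon-activated complex ISGF3, rose, from 335, 253 and 281 in Scr to 611, 568 and 605 in MICT1 KO libraries (1.04 ± 0.11 SE, adjusted p = 8.12e-08, limma-trend).

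Among 15 genes of the other SOCS and PIAS inhibitors and of the phosphatases that act on the pathway, 5 rose, 3 fell and 7 did not pass. The called share was 53.3%, near the 56.9% of all genes tested. Socs1, the inhibitor best known from interferon signaling, rose from 107 ± 14.3 (SD, n = 3) to 235 ± 8.27 (SD, n = 3) (log2 fold change 1.13, adjusted p = 3.89e-06, limma-trend). Pias3, which encodes an inhibitor of DNA binding by STAT3, rose from 312 ± 48.3 (SD, n = 3) to 640 ± 15.1 (SD, n = 3) (1.04, adjusted p = 7.11e-08, limma-trend), and Socs5 rose by 0.39 on the log2 scale. The largest falls were those of Ptpn6, the gene of the phosphatase SHP-1 (-1.60), Cish (-0.61) and Ptpn1, the gene of PTP1B (-0.46). Socs1 and Pias3 thus differed in the opposite direction to Socs3.

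Genes commonly described as STAT3 targets went both ways, with 10 of 20 higher and 6 lower by the same test. The called share was 80% against 56.9% of all genes tested, and 9 of the 20 rose at least 2-fold, a size of rise found in 7.99% of all genes. The median log2 fold change was 0.57 against -0.01 over all genes. The list was put together with earlier results of these data known, so these shares are a description. Many of them are known to answer to other signals too. The acute-phase gene Saa3 rose most, from 1880, 1939 and 1558 in Scr to 9954, 9159 and 10389 in MICT1 KO libraries (log2 fold change 2.46 ± 0.07 SE, adjusted p = 6.05e-17, limma-trend). Fgl2, which encodes a secreted fibrinogen-like protein, rose from 32.7 ± 5.89 (SD, n = 3) to 175 ± 11.3 (SD, n = 3) (2.39, adjusted p = 1.09e-08, limma-trend). Lcn2, the gene of the iron-siderophore-binding protein lipocalin-2, rose from 4340 ± 357 (SD, n = 3) to 14042 ± 899 (SD, n = 3) (1.70, adjusted p = 3.21e-15, limma-trend). The acute-phase gene Hp (haptoglobin), which adipocytes also express, fell from 1896, 1650 and 1742 in Scr to 503, 399 and 700 in MICT1 KO libraries (-1.76 ± 0.13 SE, adjusted p = 2.23e-10, limma-trend). Bcl6, a transcriptional repressor, fell by 1.13 (adjusted p = 1.65e-11, limma-trend) and Bcl2l1, the gene of the survival protein BCL-XL, by 0.55 (adjusted p = 9.03e-06) on the log2 scale.

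**Figure D5:**
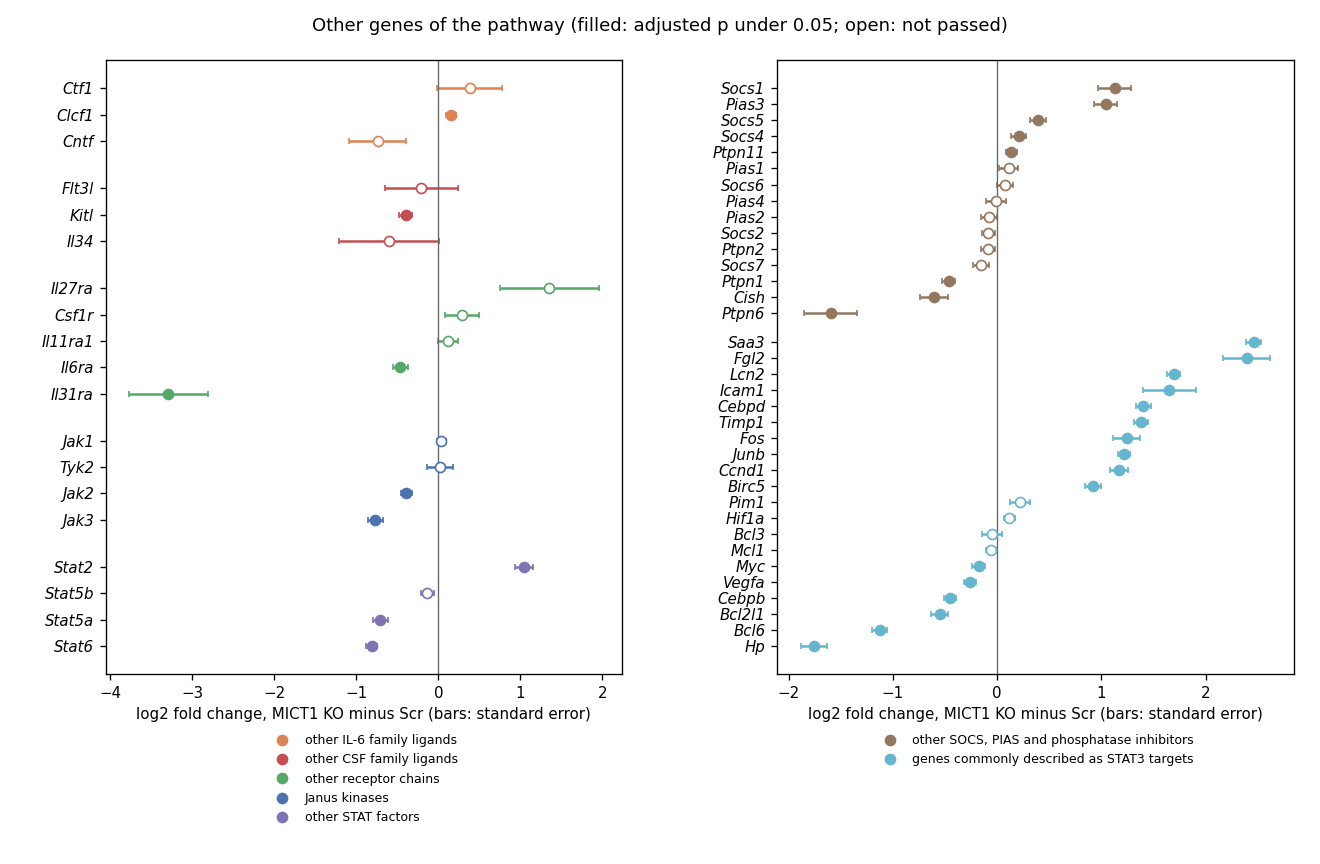
Log2 fold change (x axis, MICT1 KO minus Scr, bars are standard errors) of other tested genes of the pathway, grouped by family, with filled points for an adjusted p under 0.05. In both panels filled points lie on both sides of 0, from Il31ra at -3.29 to Saa3 at 2.46. Il31ra met the filter on low values only through its Scr libraries, and Il27ra only through its MICT1 KO libraries.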

How the data were processed

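RNA-seq values of 6 libraries were used, 3 Scr and 3 MICT1 KO, grouped by the titles in the sample labels. The authors deposited 1 table with a normalized signal per gene and library, not raw counts, of which every value is above 0. The methods give strand-specific total RNA libraries, paired-end reads and Partek as the aligner, to NCBI38/mm10, and the submitters' processing notes also name STAR, DESeq2 and GRCm38. The counting model and annotation are not given in the sources used here. Between 88.8% and 90.4% of the values under 20 lay within 0.01 of whole multiples of a step per library, from which reads were estimated, and since reads were not whole throughout, no count test was run.

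Genes that reached 10 in 3 or more libraries were compared as log2(value + 1) by limma-trend (R 4.3.3, limma 3.58.1), two-sided, with Benjamini-Hochberg adjustment and a threshold of 0.05. The functions were tested on simulated data. An exact test of 3 against 3 libraries cannot give p below 0.1. Exon lengths came from GENCODE M21 (found for 12910 genes, 97.2%) and positions from RefSeq on GRCm38.p6. The genes described and the gene lists were chosen with earlier results of these data known. The 10 genes of the cytokine axis were all named, as were all measured ligands, receptor chains, Janus kinases and STAT factors, all measured macrophage, blood cell and endothelial markers, the 2 highest of the other marker lists, and, for inhibitors and STAT3 targets, the 3 largest rises and falls that passed the test without overlap between the groups. Some single genes that the rule would name are not reported here, though the counts over the lists include them. The alternatives were pseudocounts of 0.5 and 5, no filter or one at 50, and scaling by library sum or upper quartile. Further ones were limma-voom, a fit blocked on replicate number and 6 fits that each omit 1 library. The last was a 1.8-fold rule with an unadjusted p under 0.05. It takes the fold and p thresholds of the methods, applied to the limma-trend fit, without their RPKM and gene length criteria. Replicates are described as biological in the methods, and with cultures of a single cell line p-values measure the spread between these cultures alone.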

Additional observations from a re-analysis of the deposited data

How the results depend on the processing

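The log2 fold changes of the 10 genes kept their sign in all 14 refits. Beyond leaving out a library, 2 values moved by more than the SD between replicates: Csf3 was 4.27 with a pseudocount of 5, and Stat3 was -0.65 with upper quartile scaling, which shifted the median of all genes by 0.04. When 1 library was omitted, log2 fold changes were 4.81 to 5.13 for Il6, 4.53 to 4.64 for Csf3, 2.63 to 2.73 for Lif, 2.56 to 2.66 for Il11, 0.90 to 0.97 for Csf1, -0.52 to -0.45 for Il6st, -0.41 to -0.34 for Osmr, -0.45 to -0.37 for Lifr, -0.70 to -0.68 for Stat3 and -0.43 to -0.36 for Socs3. The same fits called 6383 to 6678 genes, and 32 to 35 of the other pathway genes. The 1.8-fold rule on unadjusted p, which adds a fold threshold, gave 2189 genes (1265 higher and 924 lower) in place of 7113, and 19 of the other pathway genes, 4 of them lower, in place of 35. Among the inhibitors and STAT3 targets, each of these within -0.21 and 0.28 on the log2 scale, the call was lost for Socs4 without Scr replicate 1 (0.20) or 2 (0.20) or KO replicate 2 (0.14) or 3 (0.20), for Ptpn11 without any library but KO replicate 1 (0.10 to 0.15), and for Myc without Scr replicate 2 (-0.16) or 3 (-0.12) or KO replicate 2 (-0.14) or with upper quartile scaling (-0.14). It was gained for Socs7 without KO replicate 2 (-0.21), for Pim1 without Scr replicate 2 (0.28) or with upper quartile scaling (0.25), and for Hif1a under both scalings (0.12 and 0.15) and limma-voom (0.12). The replicate numbers pair nothing in the labels or methods, and same-numbered libraries deviated with correlations of -0.0236, -0.0155 and 0.0637 across genes, and not every library correlated best with its own number. With the replicate number as a block 7055 genes were called (3543 higher and 3512 lower) and 35 other pathway genes, so the pairing changed no count by over 1.5 times. Depth limits the genes near the filter, such as Csf3 in Scr, Il27ra, Cntf and Il31ra.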
